A study of Mus musculus with 6 samples.

Results

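The 8 genes described here encode the core enzymes of glycogen metabolism and 1 of their regulators, and were taken by name from the 24421 genes of the count table: Pgm2, Ugp2, Gyg, Gys1, Gbe1, Pygb, Pygl and Ppp1r3c. All 8 had an entry, and 6 had enough reads to be tested. RNA was sequenced from 6 samples of 4T1-tetL1(GLucAI) cells, a BALB/cfC3H mouse breast carcinoma line that carries a cassette from which the LINE-1 (L1) retrotransposon is expressed when doxycycline is added. Of these samples, 3 were untreated (tagged vehicle) and 3 had received 400 ng/mL doxycycline for 48 h. The cells were a stable population selected for the integrated cassette, which also expresses luciferase from an inducible promoter. Both groups carried the cassette, and none of the samples lacked it, so the drug and the induced cassette cannot be told apart. The cassette's own transcript, which would check the group labels, was not analysed here. The study describes its RNA-seq samples as biological triplicates, while the labels only number the replicates and do not say whether they were separate cultures, so p-values measure the spread between these samples.

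Glycogen is the branched polymer in which cells store glucose. Phosphoglucomutase turns glucose-6-phosphate into glucose-1-phosphate, UGP2 converts that into UDP-glucose, glycogenin (Gyg) primes a new chain, glycogen synthase (Gys1, the isoform of muscle and most other tissues) lengthens it and the branching enzyme GBE1 adds its branch points. Glycogen phosphorylase, in a brain isoform (Pygb) and a liver isoform (Pygl), releases glucose-1-phosphate again, and PPP1R3C carries protein phosphatase 1 to glycogen. Tumour cells are known to build glycogen stores in low oxygen, and several of these genes are known targets of the hypoxia-inducible factor HIF.

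The gene listed as Pgm2 was read as the phosphoglucomutase gene on chromosome 4, at positions 99929451 to 99987294 of GRCm38 (RefSeq), which RefSeq now names Pgm1. The table gives no coordinates, and also lists a Pgm1, read as the chromosome 5 gene now named Pgm2. This reading rests on the age of the table's names, since 679 of its symbols are older names of genes in the GENCODE M21 annotation, and could not be checked against coordinates. On the same build, Ugp2 lies on chromosome 11 (21321126 to 21371267), Gyg on chromosome 3 (20122083 to 20155117), Gys1 on chromosome 7 (45434839 to 45456617) and Gbe1 on chromosome 16 (70313949 to 70569720). Pygb lies on chromosome 2 (150786796 to 150831748), Pygl on chromosome 12 (70190815 to 70227683) and Ppp1r3c on chromosome 19 (36731731 to 36736604).

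The promoters of Pgm2 and Gys1, which fell, are shown with those of Gyg and Pygb, whose changes did not pass the test. ACGTG is a form of the core that HIF binds. The stretches can be compared for those letters only, since other forms of the core were not searched. Each is the 250 bases before the RefSeq start site in GRCm38.p6, written 5′ to 3′ along the gene, with capitals for ACGTG or, on the other strand, CACGT. The positions were chr4:99929201-99929450 on the plus strand for Pgm2, chr7:45434589-45434838 on the plus strand for Gys1, chr3:20155117-20155366 on the minus strand for Gyg and chr2:150786546-150786795 on the plus strand for Pygb.
Pgm2: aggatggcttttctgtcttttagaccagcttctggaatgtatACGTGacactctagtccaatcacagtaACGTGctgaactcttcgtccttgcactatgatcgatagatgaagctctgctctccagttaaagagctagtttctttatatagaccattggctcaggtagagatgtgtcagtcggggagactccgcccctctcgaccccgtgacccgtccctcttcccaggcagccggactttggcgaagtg
Gys1: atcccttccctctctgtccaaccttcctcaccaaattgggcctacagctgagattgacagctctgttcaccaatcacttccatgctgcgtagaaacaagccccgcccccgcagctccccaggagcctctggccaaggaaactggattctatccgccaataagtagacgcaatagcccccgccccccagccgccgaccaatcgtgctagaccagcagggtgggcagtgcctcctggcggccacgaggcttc
Gyg: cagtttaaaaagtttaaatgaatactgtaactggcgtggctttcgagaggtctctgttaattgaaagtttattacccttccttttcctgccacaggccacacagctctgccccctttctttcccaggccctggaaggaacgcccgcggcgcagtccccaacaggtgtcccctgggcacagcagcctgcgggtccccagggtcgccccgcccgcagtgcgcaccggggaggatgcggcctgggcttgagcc
Pygb: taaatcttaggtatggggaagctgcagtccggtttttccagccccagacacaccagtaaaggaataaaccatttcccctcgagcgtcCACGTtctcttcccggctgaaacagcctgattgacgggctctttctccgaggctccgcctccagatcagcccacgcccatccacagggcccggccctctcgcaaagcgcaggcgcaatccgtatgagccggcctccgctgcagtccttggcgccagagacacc

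The Pgm2 promoter held ACGTG at 2 places, which began 208 and 181 bases before the start site. The Gys1 and Gyg promoters held none, and the Pygb promoter held 1, at 163 bases before its start. Among the members not printed, the letters stood at 1 place in 1 of the 2 promoters of Ugp2, at 1 place for Pygl and at 2 for Ppp1r3c, where 1 of them lay in the longer palindrome CACGTG, and at none for Gbe1. Of all 32851 RefSeq promoters of this length, 16.6% held ACGTG on either strand and 6.02% held CACGTG. The letters CCAAT, which 33.8% of the promoters held on either strand, stood at 4 places in the Gys1 promoter, at 2 in that of Pgm2, at 1 in that of Ppp1r3c and in 1 of the 2 of Ugp2, and at none in the others. A match is a description of letters and does not show that a factor bound there. ACGTG did not separate the genes that fell from the others. CCAAT stood at more places in the promoters of Gys1 and Pgm2 than in those of any other member, which was not tested.

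The libraries held between 31653464 and 43631312 reads counted to genes, of which the ribosomal RNA gene Rn45s took 8.83% to 12.1%. The 8 epithelial markers together ranged from 1463 to 1513 CPM (counts-per-million, here with library totals scaled by TMM) in the untreated libraries and from 1429 to 1579 in the doxycycline libraries, and 6 of the 8 had a log2 fold change above 0. Of them, 1 was called, Krt19, which fell (log2 fold change -0.31), beside 2.16% of all tested genes called lower. In 3 others (Epcam 0.13, Cldn4 0.25 and Cldn7 0.33, log2 fold changes) every doxycycline library lay above every untreated one, beside 10.1% of all tested genes. None of these 3 passed the test (edgeR adjusted p = 0.336, 0.0858 and 0.23). The part of these markers in the results was not tested. None of 10 markers of blood, endothelial, liver, muscle and fat cells passed the filter on low counts. Their summed level was 0.615 to 1.41 CPM in untreated and 0.629 to 1.10 CPM in doxycycline libraries, and the muscle marker Ckm was at 0 in all 6.

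With doxycycline, Pgm2 and Gys1 fell, Ugp2 and Gbe1 had lower means without passing the test, and Gyg and Pygb stayed within 0.03 of their untreated level on the log2 scale. Thus 2 of the 6 tested members were called lower and 0 higher by the quasi-likelihood test of edgeR with Benjamini-Hochberg adjustment over all 13084 tested genes at a threshold of 0.05. Over all tested genes, 2.16% were called lower and 0.925% higher. The median log2 fold change of the 6 members was -0.15, against 0.002 over all tested genes, and 5 of the 6 lay below 0. In 3 members (Pgm2, Ugp2 and Gbe1) every doxycycline library lay below every untreated library, beside 11.1% of all tested genes, and in 0 members every doxycycline library lay above, beside 10.1%. The 6 tested members summed to 305.2 to 331.6 CPM in the untreated libraries and to 287.5 to 290.9 CPM in the doxycycline libraries, with no overlap. The sum includes the 2 genes called lower, so it is not a separate result and does not show a fall of every member. In these bulk samples, fewer cells that express a gene and less RNA per cell cannot be told apart.

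**Figure D1:**
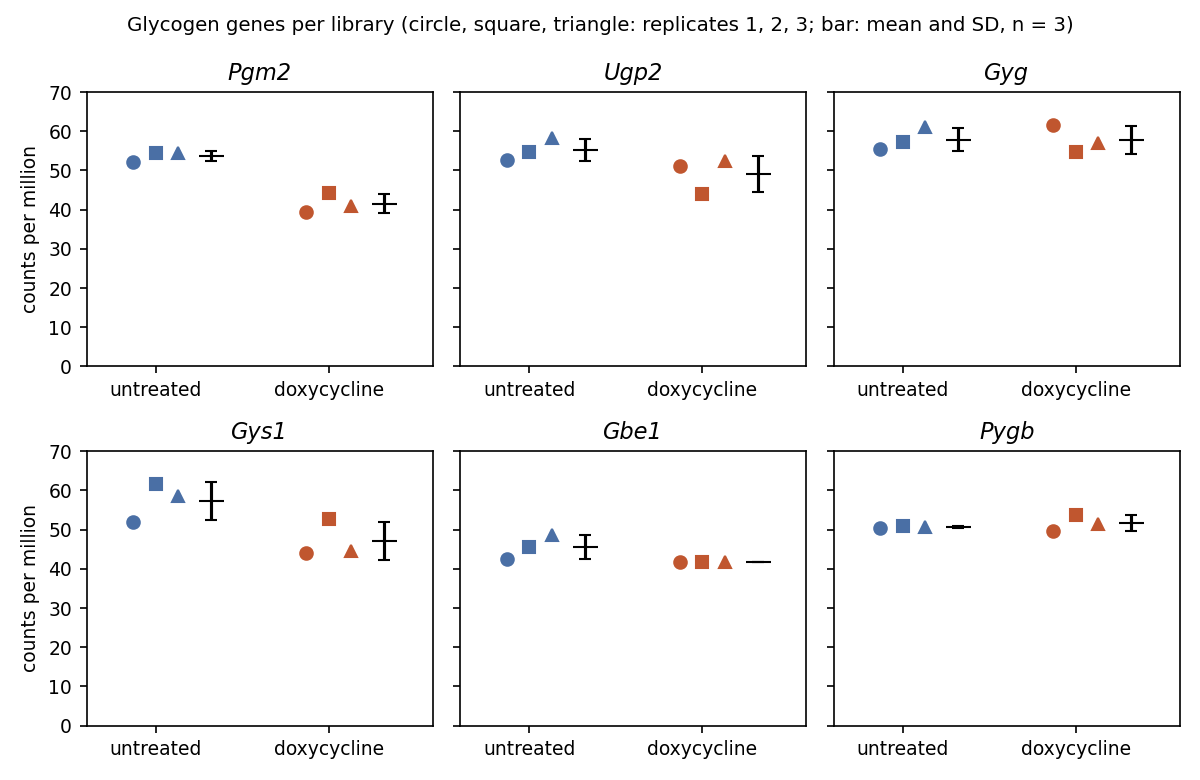
Expression of the 6 tested members in each library, in CPM on an axis that starts at 0, for untreated (blue) and doxycycline (orange) libraries, with circles, squares and triangles for replicates 1, 2 and 3 and bars for mean and SD (n = 3). The groups are apart for Pgm2, Ugp2 and Gbe1, overlap in 1 doxycycline library for Gys1, and overlap for Gyg and Pygb.

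Pgm2, which supplies glucose-1-phosphate, had the largest change of the 6 tested members. Its level was 52.2, 54.5 and 54.3 CPM in untreated libraries 1, 2 and 3, and 39.4, 44.2 and 40.9 CPM in doxycycline libraries 1, 2 and 3. All 3 doxycycline values lay well below the lowest untreated value. The mean was 53.7 ± 1.29 CPM untreated and 41.5 ± 2.47 CPM with doxycycline (SD over 3 libraries). Pgm2 thus fell by 22.6%, with a log2 fold change of -0.37 (SE 0.06, 95% interval -0.50 to -0.24, edgeR adjusted p = 0.000966). Among the 283 genes called lower it ranked 52nd by adjusted p and 134th by size, close to their median log2 fold change of -0.35. Of the 50-base windows in its transcripts, 12.2% also occur in transcripts of Itgb3bp, a centromere gene, for which reads could be shared. Itgb3bp itself was at 8.42 ± 0.376 CPM in untreated and 7.12 ± 0.457 CPM in doxycycline libraries (SD, n = 3 each). Its log2 fold change of -0.24 did not pass the test (edgeR adjusted p = 0.307), and the share of Pgm2 reads that came from it was not tested.

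The other phosphoglucomutase entry, Pgm1, had nearly equal means in both groups. It was at 57.2 ± 1.22 CPM untreated and 56.6 ± 1.09 CPM with doxycycline (SD, n = 3 each), with a log2 fold change of -0.02 (SE 0.06, 95% interval -0.13 to 0.10, edgeR adjusted p = 0.926). No 50-base window was shared between them. The log2 ratio of Pgm2 to Pgm1 per kilobase of exon, a comparison added after the data were seen, was -0.39 ± 0.04 in untreated and -0.75 ± 0.11 in doxycycline libraries (SD, n = 3 each). The groups did not overlap and differed by -0.36, with an exact permutation p of 0.1 (two-sided), the smallest that 3 against 3 libraries allow.

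Ugp2, whose product makes UDP-glucose, the sugar donor of glycogen synthase, was at 52.6, 54.7 and 58.2 CPM in the untreated libraries and at 51.1, 43.9 and 52.4 CPM in the doxycycline libraries. The groups were apart by a narrow margin, 52.4 against 52.6 CPM, and doxycycline library 2 was the lowest. The log2 fold change of -0.17 (SE 0.07, 95% interval -0.31 to -0.02) had an unadjusted p of 0.0236 and did not pass over all genes (edgeR adjusted p = 0.219). Without doxycycline library 2 it was -0.09 (edgeR adjusted p = 0.462).

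Of the 3 genes that build the polymer, Gys1 fell, Gbe1 had a lower mean and Gyg had nearly equal means. Gys1 was at 52.0, 61.5 and 58.6 CPM in untreated libraries 1, 2 and 3 and at 44.1, 52.6 and 44.5 CPM in doxycycline libraries 1, 2 and 3. The groups overlapped, since doxycycline library 2 lay above untreated library 1. The mean was 57.4 ± 4.87 CPM untreated and 47.1 ± 4.83 CPM with doxycycline (SD over 3 libraries). The level fell by 17.8%, with a log2 fold change of -0.28 (SE 0.07, 95% interval -0.44 to -0.13, edgeR adjusted p = 0.0361). Of the 283 genes called lower, 282 had groups that did not overlap, and Gys1 was the exception. It ranked 249th of the 283 by adjusted p.

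The call on Gys1 depended on single libraries. It was lost without untreated library 2 (edgeR adjusted p = 0.22), untreated library 3 (0.194), doxycycline library 1 (0.0851) or doxycycline library 3 (0.211), with log2 fold changes of -0.27 to -0.23. It was kept without untreated library 1 (-0.35, edgeR adjusted p = 0.0296) and without doxycycline library 2 (-0.37, edgeR adjusted p = 4.54e-05). Pgm2 was called in all 6 of these fits, with log2 fold changes of -0.42 to -0.33. Exons of Gys1 overlap those of Ruvbl2, an ATPase gene on the opposite strand, by 310 bases, and the strand setting of the counting is not given in the sources used here. Ruvbl2 had a log2 fold change of 0.13 (edgeR adjusted p = 0.218), opposite in sign to that of Gys1.

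**Figure D2:**
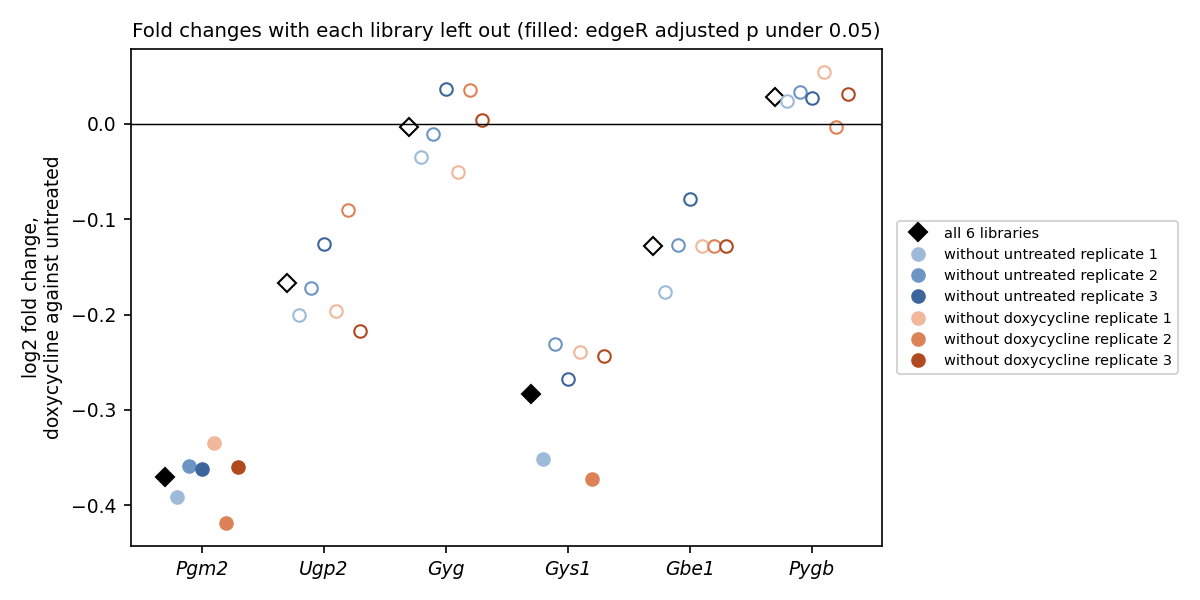
Log2 fold changes of the 6 tested members, doxycycline against untreated, with all 6 libraries (diamonds) and with each library left out (circles), filled where the edgeR adjusted p was under 0.05. Pgm2 stays filled and between -0.42 and -0.33, Gys1 is filled in 2 of the 6 leave-outs, and Gyg and Pygb lie on both sides of 0.

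Gbe1, the branching enzyme, was at 42.6, 45.6 and 48.7 CPM in the untreated libraries, and its 3 doxycycline libraries all read 41.7 to 41.8 CPM. The untreated values were spread and the doxycycline values nearly equal, just below the lowest untreated value. The margin between the groups was narrow, 41.8 against 42.6 CPM, and the closeness of the doxycycline values was not tested. The means of 45.7 ± 3.06 and 41.8 ± 0.017 CPM (SD, n = 3 each) gave a log2 fold change of -0.13 (SE 0.06, 95% interval -0.26 to 0.004), which did not pass (edgeR adjusted p = 0.326). Gyg, the primer of glycogen, was at 55.4, 57.1 and 61.0 CPM untreated and at 61.6, 54.6 and 57.1 CPM with doxycycline. Its highest value was a doxycycline library and the groups overlapped fully. The log2 fold change was -0.003 (SE 0.06, 95% interval -0.13 to 0.12, edgeR adjusted p = 0.986), so a change of more than 0.13 in either direction lay outside the interval.

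On the side of breakdown, Pygb was the only phosphorylase gene at a sizeable level. It was at 50.4, 51.0 and 50.7 CPM in the untreated libraries and at 49.7, 53.8 and 51.4 CPM in the doxycycline libraries. The untreated values were almost equal and lay inside the doxycycline range. The log2 fold change was 0.03 (SE 0.06, 95% interval -0.09 to 0.15, edgeR adjusted p = 0.864). Pygl, the liver isoform, had 0 counts in all 3 untreated libraries and 2, 3 and 0 counts in doxycycline libraries 1, 2 and 3. Each of these is at or under 3 counts, the limit that a count of 0 allows, which is 0.0683 to 0.0944 CPM in these libraries, so no difference was detectable at this depth. The muscle isoform Pygm, not a member, was near the floor of testing, with 35, 12 and 17 counts untreated and 21, 29 and 24 counts with doxycycline (log2 fold change 0.28, SE 0.39, edgeR adjusted p = 0.783). Ppp1r3c, the targeting subunit of protein phosphatase 1, had 0 counts in all 6 libraries. Counts at the floor cover counting error only.

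Levels can be compared between genes only per length, here as CPM per kilobase of the exons joined from GENCODE M21. In the untreated libraries Gyg was highest, at 30.1 CPM per kilobase, followed by Ugp2 at 19.2, Pgm2 at 18.4, Gys1 at 15.6, Pygb at 12.96 and Gbe1 at 10.7. The untreated ranges of Ugp2 and Pgm2 overlapped, and those of the other neighbours in this order did not. All 6 lay above the median tested gene, at 7.98 CPM per kilobase over 12989 genes with a length, with percentiles among these genes from 57.7 for Gbe1 to 83.1 for Gyg. Of the related genes, the phosphatase catalytic subunits Ppp1ca (175.4 CPM per kilobase), Ppp1cb (57.4) and Ppp1cc (34.9) stood above every member. Gsk3a (26.0) and Gsk3b (20.7), the kinases that restrain glycogen synthase, and Pgm1 (24.1) lay between Gyg and Ugp2.

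**Figure D3:**
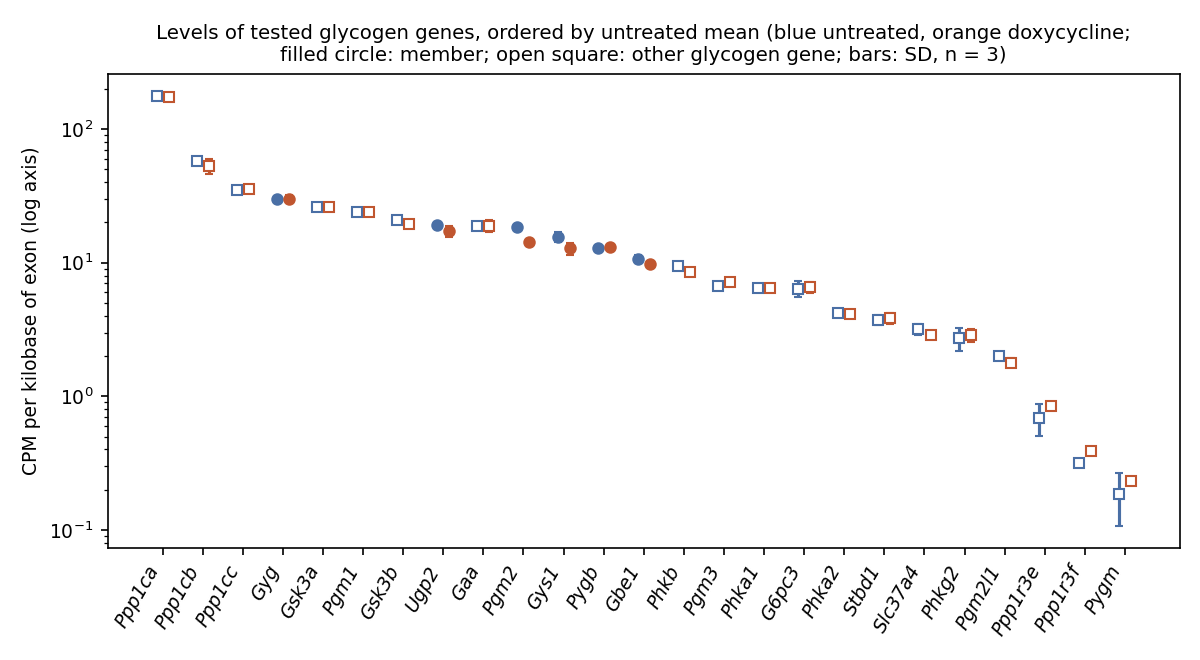
Levels of the 6 tested members (filled circles) and 19 other glycogen genes (open squares) in untreated (blue) and doxycycline (orange) libraries, in CPM per kilobase of exon on a log axis, with SD over 3 libraries. Members run from 30.1 for Gyg down to 10.7 for Gbe1 in untreated libraries, below the 3 phosphatase subunits and above the phosphorylase kinase genes and Pygm.

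Within each library, the members were also set against each other, so that library scaling dropped out. The log2 ratio of Gbe1 to Gys1 per kilobase was -0.54 ± 0.09 in untreated and -0.38 ± 0.14 in doxycycline libraries (SD, n = 3 each). The groups overlapped, and the difference of 0.16 had an exact permutation p of 0.3 (two-sided), so a shift between branching and lengthening enzyme was not shown. The log2 ratio of Gys1 to Pygb, a comparison added after the data were seen, went from 0.26 ± 0.12 to -0.05 ± 0.09 (SD, n = 3 each). The groups did not overlap, and the difference of -0.31 had an exact permutation p of 0.1 (two-sided), again the smallest possible. Adjusted by Benjamini-Hochberg over the 3 ratios, the exact permutation p-values were 0.15 for Gys1 to Pygb and for Pgm2 to Pgm1 and 0.3 for Gbe1 to Gys1.

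A wider list of 29 genes covers much of the rest of the pathway: other synthase and phosphorylase isoforms, the lysosomal glucosidase, phosphorylase kinase, protein phosphatase 1 and its targeting subunits, GSK3, other phosphoglucomutases and the glucose-6-phosphatase system. Of these, 19 were tested, and edgeR called 0 lower and 0 higher. DESeq2, run on all 29 without the filter on low counts, also called 0 lower and 0 higher. Each tool gave 1 gene an unadjusted p under 0.05, counted over the 19 genes for edgeR and over all 29 for DESeq2. By edgeR it was Phkb, a phosphorylase kinase subunit, with a log2 fold change of -0.14 (edgeR adjusted p = 0.285), named after its values were seen. The median log2 fold change of the 19 genes was -0.005, with 11 below 0 and 8 above, from -0.17 to 0.31. The 6 most abundant of them had log2 fold changes within 0.13 of 0, the largest for Ppp1cb (-0.13, edgeR adjusted p = 0.463). Whether the members differed from these genes was not tested.

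**Figure D4:**
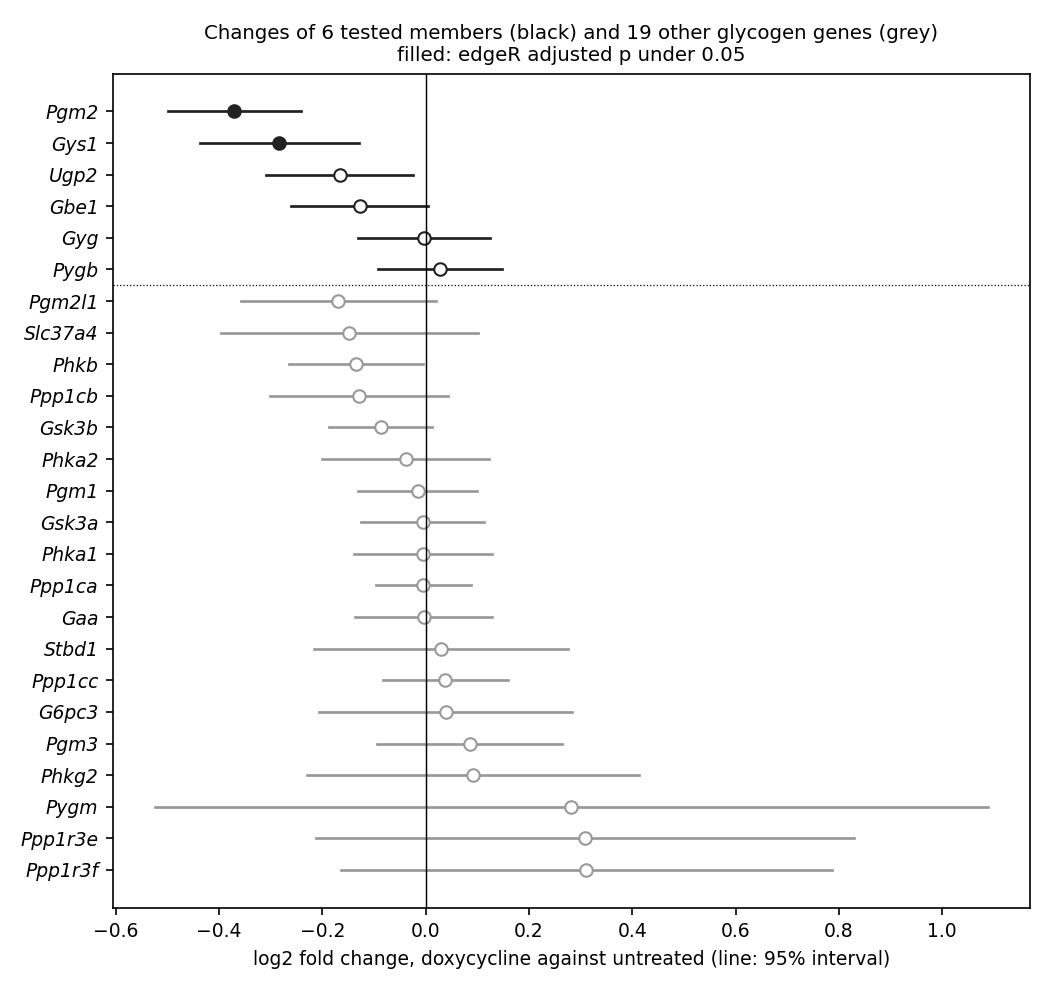
Log2 fold changes, doxycycline against untreated, with 95% intervals for the 6 tested members (black) and 19 other tested glycogen genes (grey), filled where the edgeR adjusted p was under 0.05. Pgm2 and Gys1 are filled and no other gene is, and the intervals are widest for Pygm, Ppp1r3e and Ppp1r3f, which had the fewest counts.

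The other 10 genes of the wider list did not reach the filter, with at most 15 counts in any library and 3 of them (Nhlrc1, Ppp1r3a and Ppp1r3d) at 0 in all 6. Among the subunits that carry protein phosphatase 1 to glycogen, as Ppp1r3c does, Ppp1r3b had 4, 2 and 8 counts in the untreated libraries and 0 in each doxycycline library. Ppp1r3g had 9, 8 and 15 counts untreated and 4, 4 and 2 with doxycycline. Both are named after their counts were seen, and neither reached the filter of the main test. With no filter, 3 genes of the wider list had an unadjusted edgeR p under 0.05, and 0 were called lower or higher. The liver synthase Gys2 had 1, 0 and 2 counts untreated and 4, 1 and 5 with doxycycline, mostly at or under the floor of 3.

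Because several glycogen genes are known HIF targets, 12 HIF target genes outside glycogen metabolism were set beside the members, as a list chosen with results of these libraries known. Of them, 10 were called lower and 0 higher (edgeR adjusted p under 0.05), beside 2.16% and 0.925% of all tested genes. Of the 13084 tested genes, 6443 had a log2 fold change below 0. Every one of the 12 did, with a median of -0.48. The 3 largest changes were those of Adm (-1.91, SE 0.44), Bnip3 (-1.07, SE 0.13) and Car9 (-0.87, SE 0.16). Adm had few counts, 58, 29 and 70 in the untreated and 23, 10 and 6 in the doxycycline libraries. The change of Pgm2 was smaller than that median, and whether the 2 lists moved together was not tested.

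The members did not share 1 profile over the 6 libraries. Doxycycline library 2 had the highest doxycycline value of Pgm2, Gys1 and Pygb and the lowest of Ugp2 and Gyg. Untreated library 1 was the lowest untreated library for all 6 members and untreated library 3 the highest for Ugp2, Gbe1 and Gyg. The mean of their standardised log2 CPM was most like that of Hmgn2 (Pearson r = 0.99), Golph3l (0.987), Nosip (0.983), R3hcc1 (0.982) and Atf3 (0.98), over 6 libraries. Within each library, all genes share the same depth and scaling. These 5 genes were picked for the highest correlation over few libraries, so high values follow from the choice. None of these 5 was called, with edgeR adjusted p-values from 0.0882 for Atf3 to 0.503 for Hmgn2.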

How the data were processed

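Total RNA was depleted of ribosomal RNA, made into libraries with a strand-marking kit, aligned by the authors with STAR to GRCm38 (mm10) and counted per gene with featureCounts (Subread 1.6.2 in the submitters' processing notes). The authors deposited raw counts, not normalized, with replicates apart. The strand setting and the handling of reads with several places are not given in the sources used here. The 6 count columns were matched to samples by library code (0 unmatched), and groups came from the titles.

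The 13084 genes kept by filterByExpr (minimum count 10) were fitted with the quasi-likelihood test of edgeR 4.0.16 (R 4.3.3), robust, TMM-scaled, with no term but the group, where the study used DESeq2. P-values were adjusted by Benjamini-Hochberg over all tested genes, and SE is the absolute log2 fold change over the square root of F. The scripts were tested on simulated data. No replicate pair agreed within sampling noise (chi-square per degree of freedom 6.35 to 23.2). Totals of 31653464 to 43631312 counts put a floor of 3 counts at 0.0683 to 0.0944 CPM.

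The members and lists were chosen with earlier results of these data known. Named were all members, other glycogen genes past the threshold and the 6 highest per kilobase, up to 3 called UDP-glucose and HIF genes, and the 5 genes above 10 CPM most correlated with the members, with exceptions given in the text. Some genes of these lists are not reported here. Promoters are from RefSeq, and lengths and overlaps from GENCODE M21. Ratios to Pygl, planned at first, could not be computed, as Pygl had 0 counts in 4 libraries, and ratios to Pygb and Pgm1 were added after the data were seen. Alternatives were other scalings, filters, tools, a replicate block, each library left out and, added later, a correction for GC content and transcript length.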

Additional observations from a re-analysis of the deposited data

How the results depend on the processing

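Pgm2 and Gys1 were called lower, and no other member was called, under all 9 other settings: scaling by DESeq2 size factors, by upper quartiles or by library size alone, no filter, a minimum of 10 counts in every library, the replicate block, the DESeq2 Wald test, limma voom and the GC content and transcript length correction, the last chosen after seeing the data. Adjusted p was 2.61e-06 to 0.00115 for Pgm2 and 0.000669 to 0.0498 for Gys1 in these settings. With each library left out in turn, the number of members called lower was 1 to 2 and the number called higher stayed at 0, and the median log2 fold change of the members was -0.19 to -0.10. Without the libraries named in the report, the log2 fold change of Gys1 was -0.37 to -0.23. The log2 fold change of Pygb was -0.00304 to 0.0545 in the leave-outs and turned negative without doxycycline library 2. That of Gyg was -0.0507 to 0.0364 and turned positive without untreated library 3, doxycycline library 2 (0.035) or doxycycline library 3 (0.0045). None of these was called. The 3 ratios kept their direction in all leave-outs, where exact permutation p-values (two-sided) were 0.2 to 0.6. The smallest that 2 against 3 libraries allow is 0.2, the value of Gys1 to Pygb and Pgm2 to Pgm1 in every leave-out. No ratio to Pygl could be computed.

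Replicate numbers were not found to pair the libraries, since same-numbered libraries had correlations of deviations of -0.040, -0.0045 and 0.018. With the replicate block Pgm2 was at -0.37 (edgeR adjusted p = 0.000594) and Gys1 at -0.29 (edgeR adjusted p = 0.00791), with 300 genes lower and 118 higher in all.

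Over all genes, 283 were called lower and 121 higher, against 439 and 210 with no filter and 494 and 376 with the GC content and transcript length correction. Leaving out libraries gave 116 to 487 lower and 44 to 269 higher, with the fewest without untreated library 3 and the most without doxycycline library 2; the cause was not tested. Depth limits what could be detected for Pygl, Ppp1r3c and the rarer targeting subunits, none of which was called in any setting.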

Other observations

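UDP-glucose, the sugar donor of glycogen, is also used and made by other routes. Of 9 genes of these routes, all tested, 1 fell and 0 rose by edgeR, beside 2.16% and 0.925% of all tested genes. At an unadjusted p under 0.05 the counts were the same, beside 1171 lower and 948 higher of all 13084 tested genes. The median log2 fold change of the 9 genes was -0.03. Ugdh, which oxidises UDP-glucose to UDP-glucuronate, was at 188.1, 183.3 and 192.8 CPM untreated and 168.5, 162.4 and 167.6 CPM with doxycycline (log2 fold change -0.18, SE 0.04, edgeR adjusted p = 0.0274). Ugdh was lower than in every untreated library in 3 of 3 doxycycline libraries, as were 11.1% of all tested genes. Has2, a hyaluronan synthase that uses UDP-glucuronate, named after its values were seen, had a log2 fold change of 0.08 (edgeR adjusted p = 0.481).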
